A study of Homo sapiens with 42 samples.

Results

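The genes described here encode the proteins of the mitochondrial ribosome. They were taken by name, as every gene of the count table called MRPL or MRPS followed by digits and at most 1 capital letter, with a mean of at least 1 CPM (a gene's counts over all counts of its library, scaled to a total of 1 M) over all libraries. Of 78 matching names 76 passed, out of 12939 genes that passed the same filter, and MRPL53 and MRPS24 did not. By their place in the ribosome as generally known, 50 of the 76 belong to the large subunit and 25 to the small subunit, among them MRPS18A and MRPS30, which carry small-subunit names but sit in the large subunit. MRPS36 is not a subunit but a component of the 2-oxoglutarate dehydrogenase complex, and was kept because the name rule takes it. Of the subunits, 47 descend from proteins of the bacterial ribosome and 28 have no counterpart in the bacterial ribosome.

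The libraries came from MOLM-13, a human acute myeloid leukemia line driven by a duplication within the FLT3 receptor gene. All groups share this oncogene, their genotype is labelled WT, and they are models of 1 line only. Cells were kept for 12 hours in RPMI or in hBMSC-CM, medium conditioned by human bone marrow stromal cells, a model of stromal signals without the stromal cells themselves. In RPMI they received vehicle, 3 nM of the FLT3 inhibitor quizartinib, or quizartinib with 10 nM of the mTORC1 inhibitor everolimus (combo). In hBMSC-CM they received vehicle, quizartinib, everolimus or combo. Each of the 7 conditions had 3 cultures, and each of the 21 cultures gave an input library and a library of heavy polysome RNA, hence 14 groups of 3 and 42 libraries.

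The mitochondrial ribosome translates the few messages of mitochondrial DNA, which encode core subunits of the respiratory chain and of ATP synthase. Its RNA is mitochondrial, but all its proteins are encoded in the nucleus, made on cytosolic ribosomes and imported, so that its supply depends on the expression and the translation of the genes examined here. Leukemic cells with high oxidative metabolism are known to depend on mitochondrial translation, and growth signalling through MYC and mTORC1 is known to act on the expression of many mitochondrial genes. The messages of cytosolic ribosomal proteins carry a terminal oligopyrimidine tract and are the best known targets of translational control by mTORC1.

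Libraries held 19.4 M to 38.8 M counts (median 30.2 M). The 76 genes together held 0.343% to 0.737% of the counts of an input library and 0.42% to 0.89% of a polysome library. Replicate 3 of hBMSC-CM vehicle input stood apart from its group. Relative to RPMI vehicle, the median log2 level of the 76 genes was 0.17 in it, against -0.27 and -0.29 in replicates 1 and 2, and the medians and counts of calls that move without it are given beside those with it. All 6 myeloid markers checked (PTPRC, CD33, MPO, LYZ, SPI1, CEBPA) were above 1 CPM in all 42 libraries. Of 6 stromal markers, COL3A1 and THY1 were at or near 0, COL1A2, FN1 and PDGFRB reached at most 2.0 CPM, and COL1A1 reached 38.8 CPM, with a summed stromal level of 0.834 to 41.3 CPM in RPMI input and 1.28 to 27.8 CPM in hBMSC-CM input. Since values are shares of a library, a shift common to all RNA is not measured.

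Levels within the family differed widely. Per kilobase of the canonical transcript, input levels in RPMI vehicle ranged from 0.829 ± 0.127 CPM (SD, n = 3) for MRPL38 to 238 ± 41.5 for MRPS34, with a median of 52.3 CPM per kb. The next levels below MRPS34 were those of MRPL4, a protein of the exit tunnel (177 ± 18.2 CPM per kb), and MRPL20 (170 ± 6.11), whose means lay within 1 SD of each other. Among the 3 proteins of the L7/L12 stalk, where translation factors dock, MRPL11 stood at 68.1 ± 5.43, MRPL12 at 26.7 ± 2.22 and MRPL10 at 23.7 ± 3.42 CPM per kb, and the last pair overlapped in their spread. Among the 3 paralogs of bacterial protein S18, MRPS18B stood at 104 ± 8.15, MRPS18A at 76.2 ± 1.96 and MRPS18C at 24.8 ± 0.255 CPM per kb. These levels depend on the transcript taken as canonical, which for MRPL42 is 15557 bases long with a coding length of 426. Of the exon positions of MRPL38 and MRPL12, 41.1% and 69.5% are shared with another gene on the same strand. How reads there were counted is not stated, and its effect on these levels was not examined.

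Quizartinib in RPMI lowered the input RNA of 42 members of the family, from both subunits. Of the 76 genes, 42 fell (55.3%) and 1 rose at an edgeR adjusted p under 0.05, while 18.0% of all 12939 genes fell and 16.6% rose. The median log2 change of the 76 was -0.65, against 0.08 over all genes, and 70 of 76 had a negative change. Replicate values did not overlap and were lower under quizartinib for 59 of the 76 (77.6%), as for 27.2% of all genes. The falls were at least 2-fold for 18 of the 42. Both subunits took part, with 27 of 50 genes of the large subunit falling (median -0.63) and 15 of 25 of the small (median -0.69). So did proteins of both origins, with 28 of 47 that descend from the bacterial ribosome and 14 of 28 that do not. The 33 genes that did not pass had log2 changes from -0.96 to 0.38. The number of genes called was 28 without RPMI quizartinib replicate 2, a fit for which the share of all genes is not given. In a fit blocked on replicate number within each fraction 58 fell (76.3%, against 24.4% of all genes) and 1 rose.

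The largest fall was that of MRPL24, a large-subunit protein of bacterial descent (ENSG00000143314, chromosome 1, 156737303 to 156741590, minus strand, GRCh38). Its input CPM, scaled by TMM as all CPM below unless given per kb, were 84.8, 91.6 and 99.0 in RPMI vehicle and 16.5, 16.4 and 23.6 under quizartinib. The groups lay far apart, and the log2 change was -2.29 (SE 0.28, edgeR adjusted p 7.89e-08). MRPL12, the stalk protein that contacts translation factors (ENSG00000262814, chromosome 17, 81703367 to 81707517, plus strand), read 24.6, 27.0 and 29.1 CPM in vehicle and 4.0, 5.16 and 8.48 under quizartinib. Its log2 change was -2.19 (SE 0.38, edgeR adjusted p 2.15e-05). Of its exon positions 69.5% are shared with another gene on the same strand, and how the counting treated such reads is not stated.

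MRPL17, a large-subunit protein near the exit of the tunnel (ENSG00000158042, chromosome 11, 6680385 to 6683340, minus strand), had 81.9, 64.1 and 85.2 CPM in RPMI vehicle and 16.8, 15.6 and 20.2 under quizartinib. All treated cultures were below all vehicle cultures, with a log2 change of -2.13 (SE 0.25, edgeR adjusted p 2.16e-08). MRPS26, a small-subunit protein without a bacterial counterpart (ENSG00000125901, chromosome 20, 3046052 to 3048250, plus strand), had 71.3, 65.8 and 76.9 CPM in vehicle and 16.7, 16.3 and 18.7 under quizartinib. Its log2 change was -2.05 (SE 0.19, edgeR adjusted p 1.81e-10). MRPL3, which reaches toward the peptidyl transferase centre (ENSG00000114686, chromosome 3, 131462212 to 131502983, minus strand), fell from 93.3, 84.7 and 91.0 CPM to 28.9, 28.9 and 26.0 (log2 change -1.68, SE 0.18, edgeR adjusted p 4.70e-09). MRPS12, a protein of the decoding centre (ENSG00000128626, chromosome 19, 38930944 to 38933168, plus strand), fell from 82.3, 87.1 and 82.8 CPM to 27.5, 24.9 and 29.8 (log2 change -1.62, SE 0.34, edgeR adjusted p 2.45e-04). MRPL20, known in bacteria for an early role in large-subunit assembly (ENSG00000242485, chromosome 1, 1401909 to 1407293, minus strand), fell from 117, 116 and 124 CPM to 41.7, 38.9 and 43.1 (log2 change -1.53, SE 0.23, edgeR adjusted p 1.87e-06). MRPL4 fell from 208, 197 and 240 CPM to 80.7, 77.4 and 77.2 (log2 change -1.45, SE 0.20, edgeR adjusted p 6.08e-07), and 21.3% of its exon positions lie opposite another gene. In all 8 genes the treated cultures lay below the vehicle cultures, and none of the 8 calls was lost when any 1 culture was left out or under any other setting tried.

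**Figure D1:**
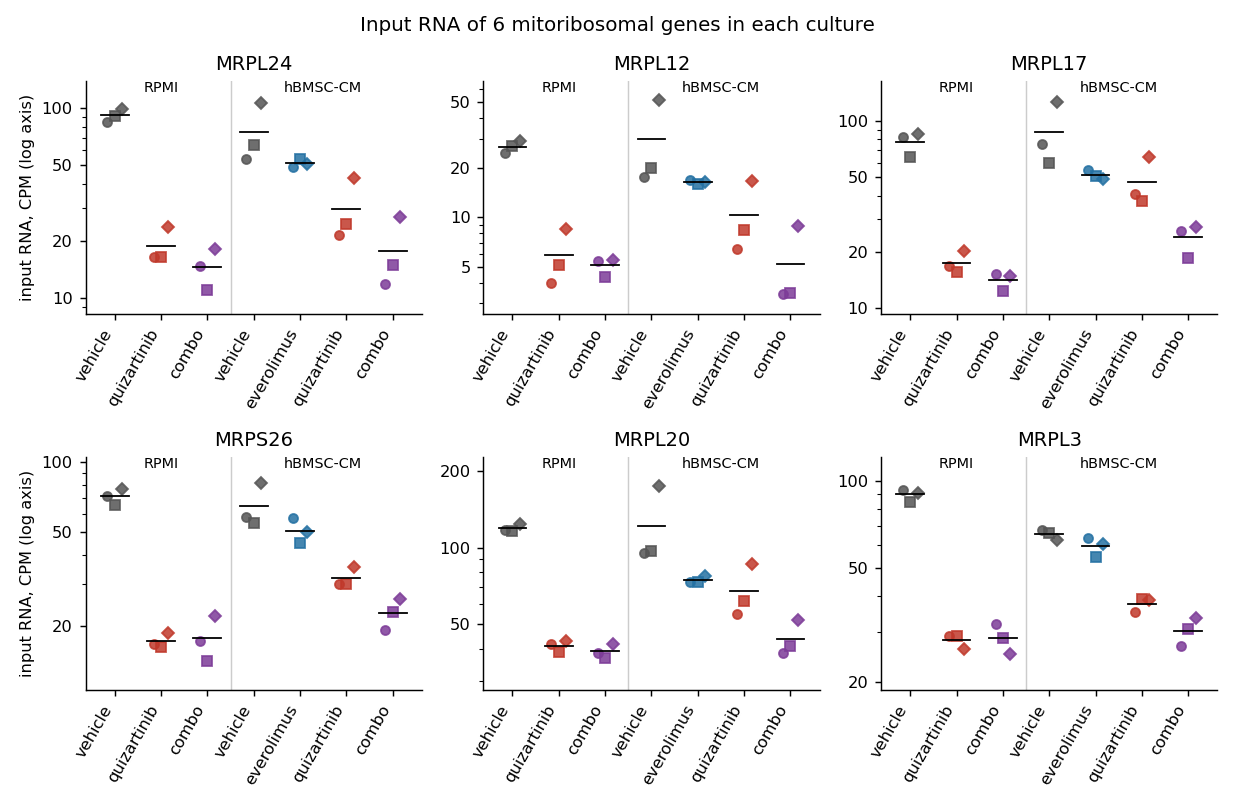
Input CPM (TMM-scaled, log axis) of 6 genes in the 3 cultures of each of 7 conditions, with circles, squares and diamonds for replicates 1, 2 and 3 and a line at the group mean. In RPMI every quizartinib culture lies below every vehicle culture for all 6 genes, and in hBMSC-CM the third vehicle culture lies above the other two for all but MRPL3.

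Members of one functional group did not all move alike. In the stalk, MRPL12 fell as above, and MRPL11 (114, 99.2 and 115 CPM in RPMI vehicle, 67.8, 53.4 and 74.1 under quizartinib) had a log2 change of -0.75 with SE 0.22 and edgeR adjusted p 0.00849, a call lost without RPMI quizartinib replicate 2 (log2 change -0.62, adjusted p 0.0629). MRPL10, the base of the same stalk, had 44.3, 34.6 and 45.5 CPM in vehicle and 58.0, 43.8 and 38.8 under quizartinib, groups that overlapped, with a log2 change of 0.18 (SE 0.20, edgeR adjusted p 0.524). Whether the stalk genes differ from each other in their change was not tested.

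Of the S18 paralogs, MRPS18C (38.5, 38.8 and 38.0 CPM in RPMI vehicle, 25.6, 24.4 and 24.7 under quizartinib) had a log2 change of -0.63 (SE 0.25) that just passed, at an edgeR adjusted p of 0.0481, and missed it (0.0639 to 0.112) without any 1 of the 6 cultures. It also missed it with RLE factors, library size alone and no filter (edgeR adjusted p 0.0714, 0.0895 and 0.121) and in DESeq2 (0.0627). With the replicate number as a block MRPS18C passed (edgeR adjusted p 0.00142). MRPS18B had a log2 change of -0.27 (SE 0.15, edgeR adjusted p 0.161, or 0.0383 with the replicate number as a block) and MRPS18A one of -0.09 (SE 0.21, edgeR adjusted p 0.789). Exons of MRPS18A and MRPS18C share 50.9% and 40.2% of their positions with a gene on the opposite strand, and the counting is not stated to use strand. MRPS30, a large-subunit protein despite its name, fell from 55.4, 56.0 and 49.3 CPM to 32.0, 30.3 and 25.7 (log2 change -0.87, SE 0.17, edgeR adjusted p 1.38e-04).

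MRPL58, a peptidyl-tRNA hydrolase that is built into the large subunit, had 51.1, 42.5 and 61.1 CPM in RPMI vehicle and 33.7, 26.2 and 39.8 under quizartinib. The log2 change of MRPL58 was -0.63 (SE 0.25, edgeR adjusted p 0.0456). The call was lost without RPMI quizartinib replicates 1 or 2 or vehicle replicates 1 or 3 (0.0884 to 0.2). It was also lost with RLE factors, library size alone and no filter (edgeR adjusted p 0.0646, 0.121 and 0.0989) and in DESeq2 (0.0556). With the replicate number as a block MRPL58 passed (edgeR adjusted p 9.31e-04). MRPL44, a protein of the ribonuclease III family, had a log2 change of -0.43 (SE 0.20, edgeR adjusted p 0.101, or 0.0137 when blocked on replicate number). The only rise was that of MRPL33, the smallest coding sequence of the family with 195 bases, named here because it was the single exception. It had 35.0, 25.7 and 18.7 CPM in vehicle and 43.6, 49.0 and 32.4 under quizartinib, so the groups overlapped. Its log2 change of 0.65 (SE 0.26, edgeR adjusted p 0.0488) missed the threshold without RPMI quizartinib replicates 1 or 2 or vehicle replicates 2 or 3 (0.109 to 0.253). It also missed it with no filter (edgeR adjusted p 0.0795) and with only the libraries compared (0.0521), and passed with the replicate number as a block (0.00116).

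In hBMSC-CM fewer of the genes passed as lower under the same drug, and fewer of all genes did too. There 21 of 76 fell (27.6%) and 0 rose, while 6.84% of all genes fell (18.0% in RPMI). The median log2 change was -0.53 against 0.01 over all genes. Replicate values did not overlap and were lower for 37 of the 76 (48.7%), as for 17.2% of all genes. With the same block, 46 of the 76 fell (60.5%, against 15.6% of all genes) and 0 rose, the 21 among them. Without hBMSC-CM vehicle replicate 3, the culture that stood apart, 5 fell and the median log2 change was -0.32. That fit kept hBMSC-CM quizartinib replicate 3, whose median level relative to RPMI vehicle was also its group's highest (-0.44, against -0.66 and -0.69). Without hBMSC-CM quizartinib replicate 1 the count was 12, and without replicate 2 it was 9. The shares of all genes in these fits are not given, so the lower counts cannot be read as particular to the family. Of the 21 falls 20 were also called in RPMI (95.2% of the 21 and 47.6% of the 42), and the other was MRPL48. Across the 76 genes the log2 changes in the 2 media had a Pearson r of 0.85 and a Spearman rho of 0.82, a description over genes that share libraries within a medium. The change was more negative in RPMI for 54 genes and in hBMSC-CM for 22.

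The largest fall in hBMSC-CM was that of MRPL12, which read 17.5, 19.9 and 51.9 CPM in vehicle and 6.39, 8.38 and 16.6 under quizartinib. The log2 change of MRPL12 was -1.52 (SE 0.37, edgeR adjusted p 0.00591), and it was -0.85 (adjusted p 0.17) without vehicle replicate 3, whose value was the highest of this gene in any input library. MRPL24 fell from 54.0, 64.3 and 107 CPM to 21.5, 24.5 and 42.9 (log2 change -1.35, SE 0.28, edgeR adjusted p 0.0013). MRPS26 fell from 58.1, 54.7 and 81.0 CPM to 30.0, 30.0 and 35.7 (log2 change -1.02, SE 0.18, edgeR adjusted p 3.81e-04). The calls of MRPL24 and MRPS26 held without any 1 of the cultures.

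Of the genes named above, MRPL11, MRPL17, MRPL20, MRPL3, MRPL4 and MRPS30 also fell in hBMSC-CM, with log2 changes of -0.89, -0.88, -0.86, -0.80, -0.68 and -0.50 (edgeR adjusted p 0.00758, 0.0134, 0.00996, 0.00277, 0.0207 and 0.0484). Without vehicle replicate 3 the log2 changes of MRPL11, MRPL17, MRPL20, MRPL4 and MRPS30 were -0.54, -0.51, -0.52, -0.44 and -0.44 (edgeR adjusted p 0.141, 0.215, 0.197, 0.202 and 0.141). The calls of MRPL17 and MRPL4 were also lost without quizartinib replicates 1 (0.0718 and 0.0991) or 2 (0.0987 and 0.133). That of MRPS30 was also lost without any 1 of the 3 quizartinib cultures or vehicle replicate 1 (0.0624 to 0.171). With only the libraries compared, MRPL11, MRPL17, MRPL20, MRPL4 and MRPS30 lost their calls (edgeR adjusted p 0.0685, 0.113, 0.0891, 0.12 and 0.103). With no filter, MRPL3, MRPL4 and MRPS30 lost theirs (0.0629, 0.106 and 0.455). MRPS30 also lost its call with RLE factors and library size alone (0.0563 and 0.126). MRPS12 had a log2 change of -0.77 (edgeR adjusted p 0.12), MRPL58 one of -0.64 (0.0853) and MRPS18C one of -0.45 (0.246). In the fit blocked on replicate number these passed, with adjusted p of 0.00144 for MRPS12, 0.00208 for MRPL58 and 0.0302 for MRPS18C. MRPL10 (0.14), MRPL44 (-0.14), MRPS18A (-0.24) and MRPS18B (-0.23) did not pass, with edgeR adjusted p of 0.336 to 0.716.

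**Figure D2:**
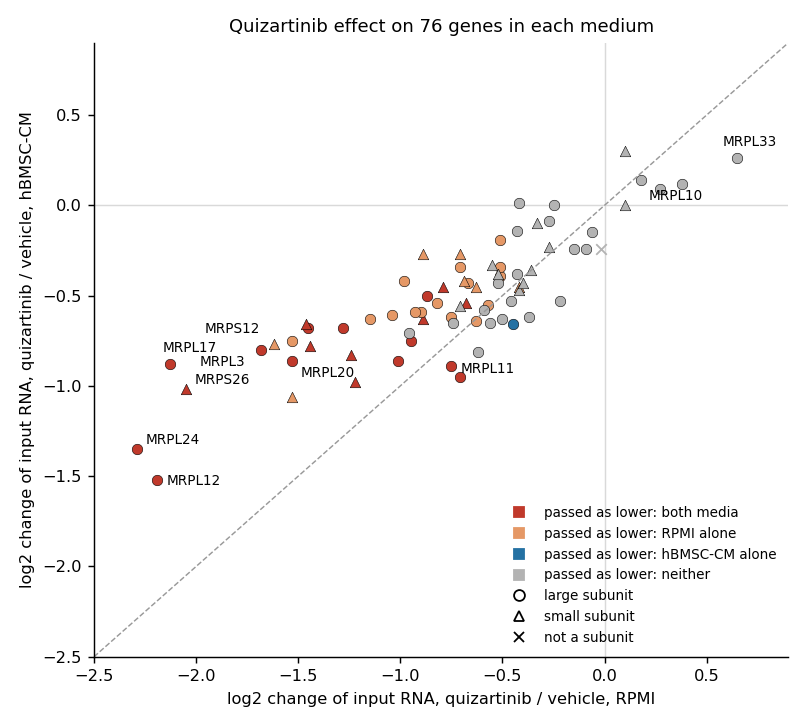
Log2 change of input RNA under quizartinib against vehicle, in RPMI (x axis) and in hBMSC-CM (y axis), for the 76 genes, with shape for the subunit, colour for the media in which a gene passed as lower, and a dashed line of equal change. Of the 76 points 54 lie left of the line, with a more negative change in RPMI, among them MRPL17 and MRPS26, 1.26 and 1.03 above it.

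Whether the effect of quizartinib differed between media was tested directly. The difference in log2 change (hBMSC-CM minus RPMI) passed for 2 of the 76 genes (2.63%), both positive, as for 1.79% of all genes. They were MRPL17 (1.26, SE 0.34, edgeR adjusted p 0.0394) and MRPS26 (1.03, SE 0.26, edgeR adjusted p 0.0229). MRPL3 had a difference of 0.88 (SE 0.25, edgeR adjusted p 0.0562). Over the 76 genes the median difference was 0.19, against -0.04 over all genes. It was 0.35 without hBMSC-CM vehicle replicate 3, where 3 genes passed, and 0.06 without hBMSC-CM quizartinib replicate 3. In the fit blocked on replicate number 8 of the 76 passed as positive (10.5%, against 5.13% of all genes) and 0 as negative, and these were MRPL3, MRPL4, MRPL17, MRPL24, MRPS2, MRPS12, MRPS25 and MRPS26. No gene of the family passed without RPMI quizartinib replicates 1 or 2, RPMI vehicle replicate 3, hBMSC-CM quizartinib replicate 3 or hBMSC-CM vehicle replicates 1 or 2, and 1 passed without RPMI vehicle replicate 1. In those fits the difference for MRPL17 was 0.97 to 1.23 (adjusted p 0.102 to 0.193) and that for MRPS26 was 0.92 to 1.01 where its call was lost (0.0666 to 0.0803). The shares of all genes in the fits without a culture are not given.

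Under quizartinib, 3 of the 76 genes were higher in hBMSC-CM than in RPMI (3.95%, against 6.11% of all genes) and 0 were lower. MRPL17 had 40.6, 37.3 and 64.5 CPM in hBMSC-CM and the 15.6 to 20.2 CPM given above in RPMI, a log2 difference of 1.44 (SE 0.24, edgeR adjusted p 7.22e-05). MRPS26 was also higher, with a log2 difference of 0.89, SE 0.18 and edgeR adjusted p 9.69e-04. MRPL20, with 54.8, 61.6 and 86.4 CPM against 41.7, 38.9 and 43.1, was higher by 0.71 (SE 0.22, edgeR adjusted p 0.0411). The call of MRPL20 was lost without hBMSC-CM quizartinib replicate 3 (0.50, adjusted p 0.317) or any 1 of the RPMI quizartinib cultures (0.0838 to 0.145). Replicate values did not overlap for 17 of the 76 as higher (22.4%, against 15.7% of all genes) and for 7 as lower (9.21%, against 14.1%). With the replicate number as a block 14 were higher (18.4%, against 11.4% of all genes), the 3 above among them, and 3 were lower (3.95%, against 6.23%), which were MRPL9, MRPL45 and MRPS27. The median log2 difference over the 76 was 0.12, and 0.01 without hBMSC-CM quizartinib replicate 3. Without drug, 0 of the 76 passed between the media (1.51% of all genes did), with a median log2 difference of -0.09 (-0.26 without hBMSC-CM vehicle replicate 3), and 6 were lower without overlap (7.89%, against 8.16% of all genes). At an unadjusted p under 0.05 there were 3 (3.95%, against 7.5% of all genes), and DESeq2 and limma voom called 0.

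The addition of everolimus was examined in 3 comparisons, in each of which 0 of the 76 genes passed in the edgeR fit without a block. Everolimus alone in hBMSC-CM gave a median log2 change of -0.33, with 69 of 76 negative, where 0.41% of all genes passed. Replicate values were lower without overlap for 31 of the 76 (40.8%), as for 13.5% of all genes. At an unadjusted p under 0.05 there were 13 (17.1%, against 8.68% of all genes), and DESeq2 and limma voom called 0. Without hBMSC-CM vehicle replicate 3 the median was -0.14. MRPL12 read 16.9, 16.0 and 16.4 CPM under everolimus, a log2 change of -0.86 (SE 0.36, edgeR adjusted p 0.442), and MRPL20 read 72.9, 73.3 and 77.2 CPM, a change of -0.72 (SE 0.22, edgeR adjusted p 0.173).

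Combo against quizartinib in hBMSC-CM gave a median log2 change of -0.27, with 66 of 76 negative, where the share passing among all genes was 0.24%. Replicate values were lower without overlap for 17 of the 76 (22.4%), as for 8.9% of all genes. At an unadjusted p under 0.05 there were 15 (19.7%, against 6.1% of all genes). Limma voom called 0, and DESeq2 called 2 as lower (2.63%, against 0.726% of all genes). The lowest edgeR adjusted p among the genes named here was that of MRPL17 (0.0728), whose CPM were 26.0, 18.5 and 27.1 under combo against 40.6, 37.3 and 64.5 under quizartinib, a log2 change of -0.99 (SE 0.24). With the replicate number as a block 9 of the 76 fell (11.8%, against 2.69% of all genes) and 0 rose, among them MRPL17 (-0.98, adjusted p 4.79e-04), MRPL24 (-0.74, 0.00875), MRPL12 (-1.01, 0.0149), MRPL4 (-0.60, 0.0164) and MRPL20 (-0.62, 0.028). Without hBMSC-CM quizartinib replicate 1 there were 2 calls, with the share of all genes in that fit not given. In RPMI the same addition gave a median log2 change of -0.08 (0.00773% of all genes passed), with 7 of the 76 lower without overlap (9.21%, against 4.52% of all genes). There 1 of the 76 had an unadjusted p under 0.05 (1.32%, against 1.33% of all genes), and DESeq2 and limma voom called 0. MRPL17 read 15.2, 12.4 and 14.9 CPM in RPMI combo, a log2 change of -0.31 (SE 0.24, edgeR adjusted p 1.0). Whether adding everolimus acted differently in the 2 media was also tested, and 0 of the 76 and 0% of all genes passed, with 2 of the 76 at an unadjusted p under 0.05 (2.63%, against 1.68% of all genes) and 0 by DESeq2 or limma voom.

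**Figure D3:**
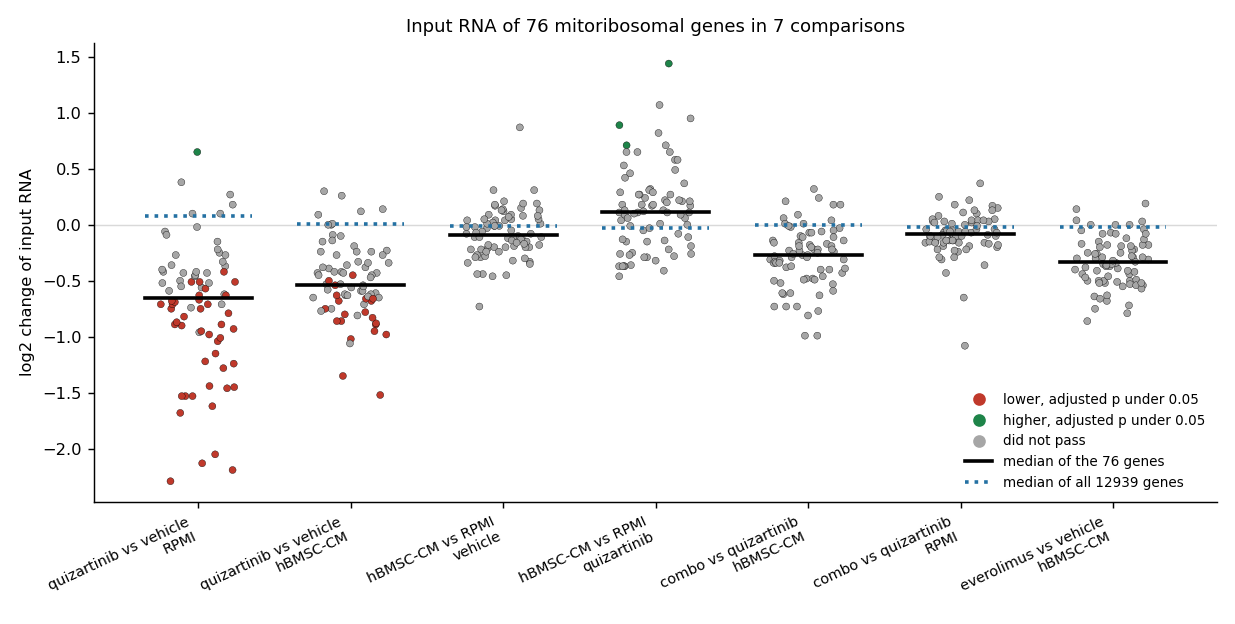
Log2 change of input RNA of the 76 genes (points) in 7 comparisons, with the medians of the 76 genes (solid line) and of all 12939 genes (dotted line) and colour for an edgeR adjusted p under 0.05. The median of the 76 lies at -0.65 and -0.53 for quizartinib against vehicle in RPMI and hBMSC-CM, and closer to that of all genes elsewhere.

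Promoter sequences were examined because the members moved together under quizartinib. RefSeq (GRCh38.p14) promoters of 300 bases, from 250 before to 50 after the start, were matched by symbol for 67 of the 76 genes and for 8943 of all genes tested. Stretches of 150 bases, 120 before to 30 after the start, are shown for 6 genes, the strongly falling MRPL12, MRPL17, MRPL20, MRPS12 and MRPS26 and, for contrast, MRPS18A, whose RNA did not pass the test. Capitals mark the letters CCGGAAG (bound by ETS factors), GCGCNTGCG (bound by NRF1, a regulator of nuclear genes for mitochondria) or AAGATGGCG (bound by YY1), on either strand. The CACGTG box bound by MYC was also searched, and all 4 motifs were allowed to overlap.
MRPL12, chr17:81703247-81703396, plus strand: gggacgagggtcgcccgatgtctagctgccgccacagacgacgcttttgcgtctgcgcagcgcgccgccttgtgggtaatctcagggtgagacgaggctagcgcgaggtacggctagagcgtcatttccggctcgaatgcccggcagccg
MRPL17, chr11:6683311-6683460, minus strand: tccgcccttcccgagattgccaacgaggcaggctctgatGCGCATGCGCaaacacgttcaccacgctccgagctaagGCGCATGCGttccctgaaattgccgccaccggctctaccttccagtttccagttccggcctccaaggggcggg
MRPL20, chr1:1407264-1407413, minus strand: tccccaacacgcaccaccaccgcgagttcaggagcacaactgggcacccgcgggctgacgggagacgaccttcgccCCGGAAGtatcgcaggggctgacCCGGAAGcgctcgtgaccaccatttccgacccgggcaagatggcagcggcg
MRPS12, chr19:38930824-38930973, plus strand: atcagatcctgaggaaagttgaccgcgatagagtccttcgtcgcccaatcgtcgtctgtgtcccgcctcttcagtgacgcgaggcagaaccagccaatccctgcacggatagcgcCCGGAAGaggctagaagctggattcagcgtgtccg
MRPS26, chr20:3045932-3046081, plus strand: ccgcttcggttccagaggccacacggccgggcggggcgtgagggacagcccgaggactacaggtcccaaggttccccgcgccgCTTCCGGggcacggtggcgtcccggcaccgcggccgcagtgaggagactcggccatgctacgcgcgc
MRPS18A, chr6:43687762-43687911, minus strand: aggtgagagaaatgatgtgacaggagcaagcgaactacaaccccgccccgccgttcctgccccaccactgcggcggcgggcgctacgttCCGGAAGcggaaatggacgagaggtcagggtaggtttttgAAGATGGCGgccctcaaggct

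CCGGAAG was present in 28 of the 67 promoters of the family (41.8%) and in 21.0% of all 8943. AAGATGGCG was present in 12 of the 67 (17.9%) and in 4.4% of all, and for 9 of the 12 it lay after the start. GCGCNTGCG was present in 16.4% and 16.0%, and CACGTG in 9.0% and 10.5%. The median log2 change under quizartinib in RPMI was -0.53 for the 28 genes with CCGGAAG and -0.69 for the 39 without it, -0.50 for the 12 genes with AAGATGGCG and -0.63 for the 55 without, -0.67 for the 11 genes with GCGCNTGCG and -0.61 for the 56 without, and -0.50 for the 6 genes with CACGTG and -0.67 for the 61 without. The 28 genes with CCGGAAG include 13 that fell, and the 39 without it 23. CCGGAAG and AAGATGGCG were thus found in a larger share of the family's promoters than of all promoters, with no test made. These are matches of letters, not measured binding.

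With TMM scaling, messages of the family were mostly overrepresented in heavy polysomes of untreated cells. In RPMI vehicle, 45 of the 76 genes were higher in polysome than in input RNA (59.2%, against 31.5% of all genes) and 10 were lower (13.2%, against 33.9%). The median log2 ratio was 0.81 for the 76 and -0.06 for all genes. This split rests on the scaling. With library size alone, which put the median of all genes at -0.61, there were 28 higher and 12 lower with a median of 0.26, and with RLE factors 52 higher and 6 lower. The shares of all genes called under these scalings are not given. Both subunits were on the higher side, with 31 of 50 genes of the large (median 1.01) and 14 of 25 of the small subunit (median 0.71).

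The highest ratio was that of MRPL49, a large-subunit protein without a bacterial counterpart (ENSG00000149792, chromosome 11, 65122183 to 65127371, plus strand). Its CPM were 39.1, 31.7 and 30.0 in input and 138, 194 and 120 in polysome RNA, a log2 ratio of 2.16 (SE 0.31, edgeR adjusted p 4.71e-07). MRPS18A followed with 86.1, 90.5 and 89.2 CPM against 302, 432 and 277 (1.93, SE 0.22, edgeR adjusted p 1.07e-08), and MRPL4 (ENSG00000105364, chromosome 19, 10251901 to 10260055, plus strand) with 208, 197 and 240 against 990, 680 and 640 (1.84, SE 0.20, edgeR adjusted p 8.50e-09). MRPS26 (1.80), MRPL10 (1.64), MRPL17 and MRPS12 (both 1.58), MRPL24 (1.56), MRPS18B (1.36) and MRPL58 (1.17) were also higher in polysome RNA (edgeR adjusted p at most 1.51e-04). MRPL12 (1.11, adjusted p 0.00853), MRPS18C (0.86, 0.00316) and MRPL11 (0.61, 0.0177) passed as well. Each of the 3 lost its call without RPMI vehicle replicate 2, with adjusted p of 0.0746, 0.0535 and 0.164, and MRPL11 also without replicate 1 (0.0643). With library size alone their ratios were 0.54, 0.32 and 0.04 (adjusted p 0.181, 0.273 and 0.854).

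The lowest ratios were those of MRPL42, MRPL1 and MRPS31. MRPL42, a large-subunit protein without a bacterial counterpart (ENSG00000198015, chromosome 12, 93467514 to 93516214, plus strand), had 57.0, 58.6 and 51.0 CPM in input and 8.62, 17.3 and 16.7 in polysome RNA, a log2 ratio of -1.97 (SE 0.28, edgeR adjusted p 4.72e-07). MRPL1, the protein of the mobile stalk at the tRNA exit (ENSG00000169288, chromosome 4, 77862830 to 77952785, plus strand), had 74.8, 86.4 and 94.4 against 13.0, 29.7 and 29.4 CPM (-1.82, SE 0.44, edgeR adjusted p 5.11e-04). MRPS31, of the small subunit (ENSG00000102738, chromosome 13, 40729128 to 40771190, minus strand), had 51.8, 57.6 and 56.5 against 12.5, 19.2 and 17.4 CPM (-1.76, SE 0.40, edgeR adjusted p 2.91e-04). For these 3 genes no polysome library reached any input library. MRPL3 was also lower in polysome RNA (-0.61, SE 0.18, edgeR adjusted p 0.00308), which did not pass without RPMI vehicle replicate 1 (-0.45, 0.0742), while MRPL20 (0.46, 0.0701), MRPL44 (0.41, 0.0747), MRPL33 (0.15, 0.636) and MRPS30 (-0.17, 0.376) did not pass. Across the 76 genes the ratio had a Spearman rho of -0.25 with the length of the canonical transcript and -0.11 with the coding length (195 to 1317 bases), as a description over genes measured in the same 6 libraries.

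**Figure D4:**
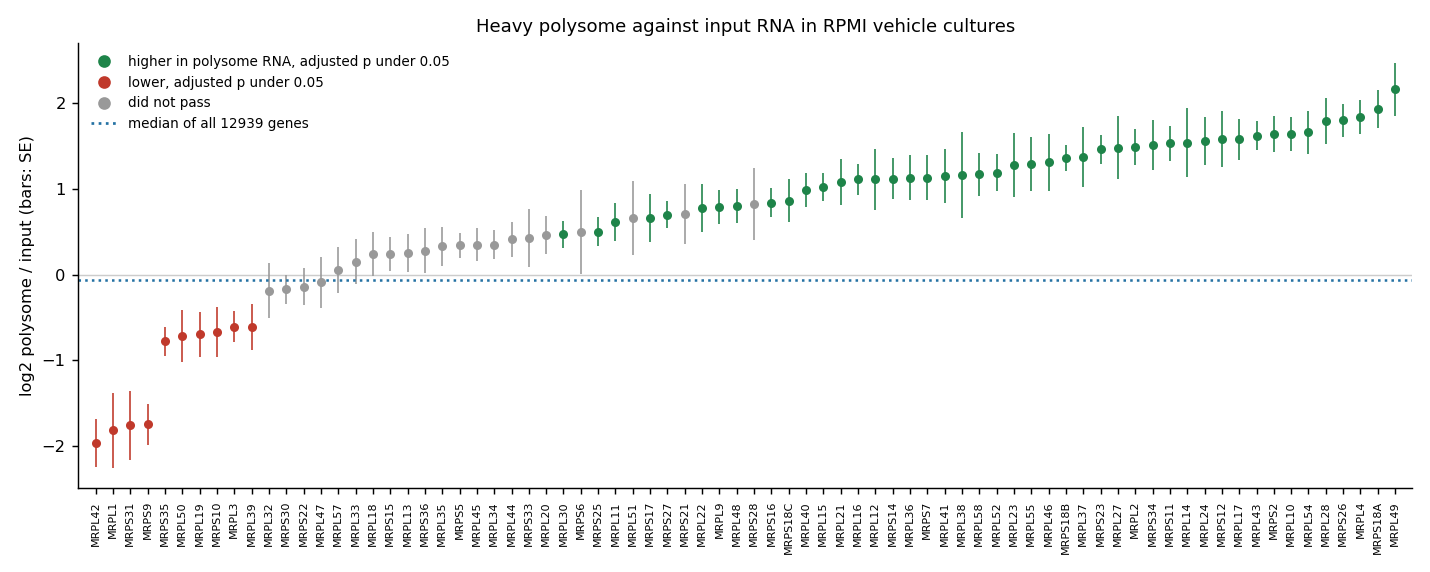
Log2 ratio of heavy polysome to input RNA in RPMI vehicle for each of the 76 genes in order of size, with SE bars, colour for an edgeR adjusted p under 0.05 and a dotted line at the median of all genes. Ratios run from -1.97 for MRPL42 to 2.16 for MRPL49, and 62 of 76 are positive.

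For drug and medium, no member passed in polysome RNA beyond its input change in the edgeR fit without a block. In the polysome layer, the polysome change minus the input change, 0 of the 76 genes passed in any of the 9 comparisons in that fit. Under quizartinib in RPMI the median was -0.23, against 0.15 over all genes, of which 1.55% passed. Of the 76, 10 had an unadjusted p under 0.05 (13.2%, against 15.6% of all genes), limma voom called 0, and DESeq2 called 1 as lower (1.32%, against 2.6% of all genes). With the replicate number as a block 9 passed as lower (11.8%, against 3.93% of all genes) and 0 as higher, and these were MRPL11, MRPL23, MRPL33, MRPL37, MRPL43, MRPL52, MRPL54, MRPS21 and MRPS25, the lowest adjusted p being that of MRPL43 (-0.69, SE 0.17, 0.00624). MRPL24, MRPL12, MRPL17 and MRPS26 had values of -0.31, -0.49, -0.23 and -0.11 here (edgeR adjusted p 0.74 to 0.911). With library size alone the median over the 76 was 0, so that its sign is not settled across scalings.

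In the other 8 comparisons of this layer 0% of all genes passed. The medians over the 76 were 0.18 for quizartinib in hBMSC-CM, -0.15 and 0.19 for hBMSC-CM against RPMI under vehicle and under quizartinib, -0.01 and -0.02 for adding everolimus to quizartinib in hBMSC-CM and RPMI, 0.15 for everolimus alone, and 0.31 and -0.01 for the differences between media. Without hBMSC-CM vehicle replicate 3 the median was -0.05 for quizartinib in hBMSC-CM, -0.02 for the media under vehicle and 0.01 for everolimus alone. At an unadjusted p under 0.05 there were 0 to 2 of the 76 in each, while the shares of all genes were, in the order of the medians above, 2.23%, 1.63%, 3.48%, 2.11%, 0.719%, 4.43%, 4.82% and 0.518%. DESeq2 and limma voom called 0 of the 76 in each.

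The cytosolic ribosome is the other ribosome of the cell. Of 85 of its protein genes, 63 fell in the polysome layer under quizartinib in RPMI (74.1%) with a median of -1.56, as did 165 of all 12939 genes. In input RNA 5 of the 85 fell (5.9%, against 18.0% of all genes) with a median of 0.12. For the 76 mitochondrial genes the counts were 0 in the polysome layer and 42 in input RNA (55.3%). With the replicate number as a block, 9 of the 76 were lower in the polysome layer (11.8%, against 3.93% of all genes). In hBMSC-CM the medians in the polysome layer were -0.38 for the cytosolic and 0.18 for the mitochondrial genes, with 0 calls in both. These counts are given side by side, and the difference between the lists was not tested.

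**Figure D5:**
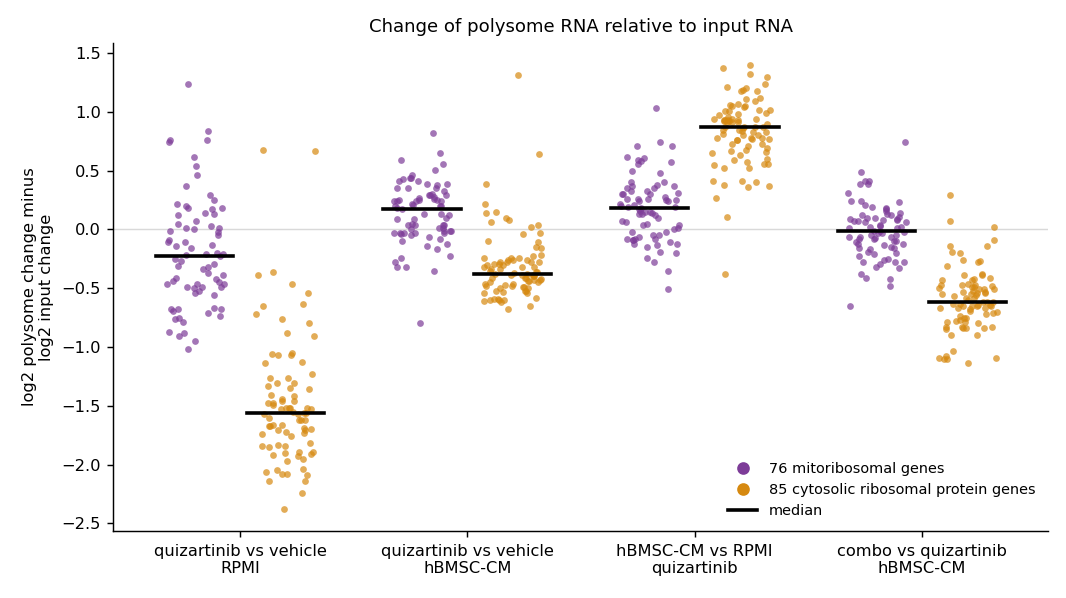
Log2 polysome change minus log2 input change in 4 comparisons for the 76 mitochondrial genes (left column of each pair) and 85 cytosolic ribosomal protein genes (right column), with lines at the medians. Under quizartinib in RPMI the medians are -0.23 and -1.56, and under hBMSC-CM against RPMI with quizartinib 0.19 and 0.87.

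Other genes of mitochondrial translation were taken from lists written from general knowledge. Of 5 subunits whose names do not follow the MRP pattern, 3 fell in input RNA under quizartinib in RPMI and 1 in hBMSC-CM, where 18.0% and 6.84% of all genes fell, with medians of -0.49 and -0.46. GADD45GIP1, of the large subunit, had the largest fall there, with a log2 change of -1.11, SE 0.25 and edgeR adjusted p 6.06e-04. Of 25 factors that build or modify the mitochondrial ribosome, 16 fell in RPMI (64.0%) and 3 in hBMSC-CM (12.0%), beside the same shares of all genes, with medians of -0.63 and -0.44. The largest fall was that of MRM1, a methyltransferase of the large ribosomal RNA (log2 change -2.47, SE 0.34, edgeR adjusted p 4.86e-07). Of 15 factors of mitochondrial translation and messenger stability, 4 fell in RPMI (26.7%) and 2 in hBMSC-CM (13.3%), nearer to those shares, with medians of -0.48 and -0.26. The largest fall was that of SLIRP, which stabilises mitochondrial messages with LRPPRC (log2 change -1.76, SE 0.31, edgeR adjusted p 3.36e-05). No gene of these 3 lists rose in input RNA under quizartinib in either medium in edgeR's test.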

How the data were processed

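RNA-seq of poly(A) RNA from input and heavy polysome fractions was analysed. The authors aligned paired reads to hg38 and counted them per gene with STAR 2.6.0a, and deposited the raw counts. How reads shared by overlapping genes were counted is not stated. Whether counting used strand is not given in the sources used here. Rows of one name were summed (58884 rows, 57353 names), and genes averaging at least 1 count and 1 CPM were kept (12939). An edgeR 4.0.16 quasi-likelihood fit (R 4.3.3, robust, TMM) held 14 group means without a block, with Benjamini-Hochberg adjustment over all 12939 genes and a threshold of 0.05. It was tested on simulated counts drawn independently for each library. These held no deviations shared by same-numbered libraries, so they do not show how the fit acts under such pairing. The study describes its replicates as biological.

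The labels number the replicates. Same-numbered libraries deviated together from their group means (r 0.464 to 0.854 in input, 0.242 to 0.879 in polysome RNA) in all comparisons except everolimus alone. The main fit left this pairing out. The replicate block took the numbers as pairs between conditions, and the culture block paired the 2 fractions of a culture. The main fit also treated the 2 fractions of a culture as independent, though their deviations had a median r of 0.167 (-0.139 to 0.382). Alternatives were DESeq2 1.42.0, limma 3.58.1 voom, RLE factors, library size only, no filter, only the libraries compared, a replicate block within fractions, a culture block, and each culture left out.

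Named genes were 11 chosen by role (MRPL3, MRPL10, MRPL11, MRPL12, MRPL44, MRPL58, MRPS12, MRPS18A, MRPS18B, MRPS18C, MRPS30) and those with the largest changes among members called without overlap at a mean of 10 CPM or more. Other members were named after their values were seen. The members and lists were chosen with earlier results of these data known. Positions, lengths and overlaps are from GENCODE v44 (GRCh38).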

Additional observations from a re-analysis of the deposited data

Results flagged for a closer look

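The effect of quizartinib on input RNA differed between hBMSC-CM and RPMI for 2 of the 76 genes by the interaction term of the edgeR fit (2.63%, against 1.79% of all genes, both in the positive direction). The difference in log2 change was 1.26 for MRPL17 (-0.88 in hBMSC-CM and -2.13 in RPMI) and 1.03 for MRPS26 (-1.02 and -2.05). Over the 19 other settings tried the difference ranged from 0.97 to 1.62 for MRPL17 and from 0.92 to 1.22 for MRPS26, always positive, and the call was lost in 9 and 7 of them.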

How the results depend on the processing

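Of 278 alternative counts of called genes, 251 stayed within 1.5 times the count reported. For quizartinib in RPMI, leaving out a culture gave 28 to 37 calls. For quizartinib in hBMSC-CM the counts were 10 with no filter, 8 with only the libraries compared, 46 with the replicate block and 5 to 22 with a culture left out. For hBMSC-CM against RPMI under quizartinib they were 5 with library size only, 7 with only the libraries compared, 17 with the block and 2 to 4 with a culture left out. For combo in hBMSC-CM they were 2 with DESeq2, 1 with no filter, 9 with the block and 0 to 2 with a culture left out. For the difference between media they were 1 with library size only, 1 with no filter, 8 with the block and 0 to 3 with a culture left out. For the polysome layer under quizartinib in RPMI, DESeq2 gave 1 and the block 9. The cause of these differences was not tested, except that fewer samples enter when a culture is left out. Beside these counts, and those without a culture above, the shares of all genes are not given. A moved count can thus not be read as particular to the family.

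Everolimus alone, where same-numbered cultures did not deviate together (r -0.0546 to -0.00933 in input and -0.191 to 0.089 in polysome RNA), had 7 calls with the replicate block, where 5.22% of all genes were called. For 18 of 21 libraries of each fraction, the mean correlation with libraries of other groups was highest for those of their own number. The block moved no other count by more than 1.5 times. Leaving out a culture gave MRPL10 log2 changes of -0.0043 to 0.29 in RPMI, negative without quizartinib replicate 1, and of -0.05 to 0.30 in hBMSC-CM, negative without quizartinib replicate 1. Of 278 alternative medians over the 76 genes, 11 moved by more than 0.17, the spread between library medians.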
